A study of Mus musculus with 12 samples.

Results

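Intermediate progenitors are the dividing cells that stand between radial glia and young glutamatergic neurons, and 9 genes that mark the step were followed in mouse hippocampus, library by library: Neurog2, Eomes, Insm1, Neurod1, Neurod2, Neurod6, Tbr1, Sox11 and Igfbpl1. They were chosen by symbol from the 29454 genes of the deposited expression table. Each of the 9 had 1 row in that table, and all 9 passed the filter on low values. RNA of hippocampus from littermate pups, labelled C57/BL6, was sequenced after depletion of ribosomal RNA in 12 libraries. Neither transgene was carried by the pups of the 3 WT libraries. For the 3 CAMK libraries the pups had CaMKIIα-tTA alone, a driver that makes the tetracycline transactivator from the promoter of a forebrain neuron gene. In the 6 CX3CL1-ct libraries the pups had this driver together with Tg-CX3CL1-ct, a transgene that encodes the C-terminal end of CX3CL1, a membrane-bound chemokine, and whose promoter is not given in the sources used here. The transgenic line had been backcrossed to C57BL/6J for 6 generations before it was mated with the driver line. The labels give postnatal day 4, and the design text of the series gives postnatal day 0. Whether libraries stand for separate animals is not said in the labels, and p-values therefore measure only the spread between these libraries.

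In the developing cortex and hippocampus the genes act in a sequence. Radial glia that turn on the proneural factor Neurog2 give rise to intermediate progenitors, which make the T-box factor Eomes (also called Tbr2) and the zinc finger factor Insm1. The basic helix-loop-helix factor Neurod1 comes on as these cells leave the cycle, and Neurod2, Neurod6 and the T-box factor Tbr1 are kept in young and maturing glutamatergic neurons. Sox11, a SoxC factor, and Igfbpl1, a secreted protein related to insulin-like growth factor binding proteins, are high in neuroblasts and young neurons. In the first postnatal days the dentate gyrus still forms granule neurons through such progenitors. Some of the genes are also made elsewhere in the forebrain: Eomes in mitral and tufted cells, the projection neurons of the olfactory bulb, and Tbr1 in deep layers of the neocortex.

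Libraries differed before any comparison of genotypes. Values were FPKM, fragments scaled for transcript length and library total. What 1 fragment is worth in short genes put the depth at about 12300000 to 16200000 fragments per library. CX3CL1-ct 1, 2 and 3 resembled each other closely: over 1719 genes of 1 transcript, the variance between them was 1.47 to 2.04 times that of counting alone, against 1.94 to 9.61 in the 18 other pairs within a group. The 1.94 was that of WT 2 with WT 3, within the range of CX3CL1-ct 1 to 3, and CAMK 2 with CAMK 3 gave 2.56. WT 1 gave 6.76 and 9.61 with the other WT libraries, and CAMK 1 gave 3.98 and 6.72 within CAMK. Results are also given with CX3CL1-ct 1 to 3 averaged into 1 library and with CX3CL1-ct 4 to 6 alone. The close pairs of WT and CAMK were not averaged. WT 2, WT 3 and CX3CL1-ct 5 were high in genes of striatal projection neurons, with a summed level of 11 marker genes of 262.7, 186 and 190.7 FPKM against 33.5 to 60.3 in the other 9 libraries. The 6 genes listed as markers of the hippocampus were detected in every library. Their summed level was 172 to 249 FPKM in WT, 184 to 189 in CAMK, and 95.1 to 226 in CX3CL1-ct, where the lowest value was that of CX3CL1-ct 5. Of 8 dentate granule neuron genes, Dsp, Tdo2 and Lct were under 1 FPKM in every library. In such tissue RNA, fewer cells of a type and less RNA per cell cannot be told apart.

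The 9 genes lie on 7 chromosomes (mm10, GENCODE M21). Neurog2 is on chromosome 3, 127633135 to 127635631, plus strand, Eomes on chromosome 9, 118478212 to 118486132, plus strand, and Igfbpl1 on chromosome 4, 45809468 to 45826923, minus strand. Insm1 (146221921 to 146225020, plus strand), Tbr1 (61802930 to 61814114, plus strand) and Neurod1 (79452521 to 79456751, minus strand) share chromosome 2. Neurod2 is on chromosome 11, 98325415 to 98329648, Neurod6 on chromosome 6, 55677822 to 55681263, and Sox11 on chromosome 12, 27334264 to 27342574, each on the minus strand. Insm1 and Sox11 have a single exon. The authors' interval for Neurod1 runs to 79461107, past the annotated gene, and exons of Cerkl on the same strand overlap it, so its value is less certain. Cerkl itself was at 0.0521 to 0.456 FPKM, far below Neurod1. An exon of Gm33460 overlaps Eomes on the opposite strand. The library kit marks strand, but whether counting used it is not given in the sources used here.

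Promoter sequence was in the RefSeq table (GRCm38.p6) for 7 of the 9 genes. The 250 bases before the start are shown for both T-box factors, whose levels parted between libraries, and for Neurod1 and Neurod2, paralogs that were both lowest in CX3CL1-ct 5, with every E-box (CANNTG, the letters bound by basic helix-loop-helix factors) in capitals. The starts are RefSeq's, so the window of Tbr1 lies inside the GENCODE interval given above (the authors' interval begins at 61804453), and those of Neurod1 and Neurod2 overlap its end. The windows, read 5′ to 3′ on the gene's strand, are chr9:118477939-118478188 (plus strand) for Eomes, chr2:61804203-61804452 (plus strand) for Tbr1, chr2:79456637-79456886 (minus strand) for Neurod1 and chr11:98329646-98329895 (minus strand) for Neurod2.
Eomes: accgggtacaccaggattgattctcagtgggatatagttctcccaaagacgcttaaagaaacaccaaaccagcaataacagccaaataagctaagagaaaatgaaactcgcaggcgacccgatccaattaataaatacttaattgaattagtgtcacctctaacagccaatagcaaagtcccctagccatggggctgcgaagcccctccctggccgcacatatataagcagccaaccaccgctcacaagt
Tbr1: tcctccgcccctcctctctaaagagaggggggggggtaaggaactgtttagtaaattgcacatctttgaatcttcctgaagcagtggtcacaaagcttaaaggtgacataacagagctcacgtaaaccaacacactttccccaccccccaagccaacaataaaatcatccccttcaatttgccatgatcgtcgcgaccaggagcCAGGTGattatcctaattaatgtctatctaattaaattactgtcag
Neurod1: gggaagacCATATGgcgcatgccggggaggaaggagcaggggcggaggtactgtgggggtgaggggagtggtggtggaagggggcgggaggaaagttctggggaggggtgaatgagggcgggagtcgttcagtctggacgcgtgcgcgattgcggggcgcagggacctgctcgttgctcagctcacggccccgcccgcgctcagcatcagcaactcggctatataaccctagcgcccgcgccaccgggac
Neurod2: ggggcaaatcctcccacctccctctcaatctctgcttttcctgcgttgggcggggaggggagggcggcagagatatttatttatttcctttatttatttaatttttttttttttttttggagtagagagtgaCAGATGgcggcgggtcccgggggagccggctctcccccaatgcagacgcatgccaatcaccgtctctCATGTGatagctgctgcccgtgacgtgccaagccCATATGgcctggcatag
E-boxes stood in 5 of the 7 windows, against 66.2 percent of all 32817 promoter windows of this length in the table. Those of Eomes and Neurog2 held 0. Neurod2 held 3, Neurod6 and Sox11 held 2 each, and Neurod1 and Tbr1 held 1 each. The E-box CATATG, which reads the same on both strands, stood in the windows of Neurod1, Neurod2 and Sox11, and in 3.47 percent of all windows. This spelling was picked after the sequences were seen. CAGATG, another spelling of the E-box, stood on either strand only in the window of Neurod2 (14.5 percent of all windows). The T-box core AGGTGT was found only for Neurod6 (11.8 percent of all windows) and the Sox motif ACAAAG only for Tbr1 (16.5 percent), both strands searched. A match or its absence describes these letters only.

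**Figure D1:**
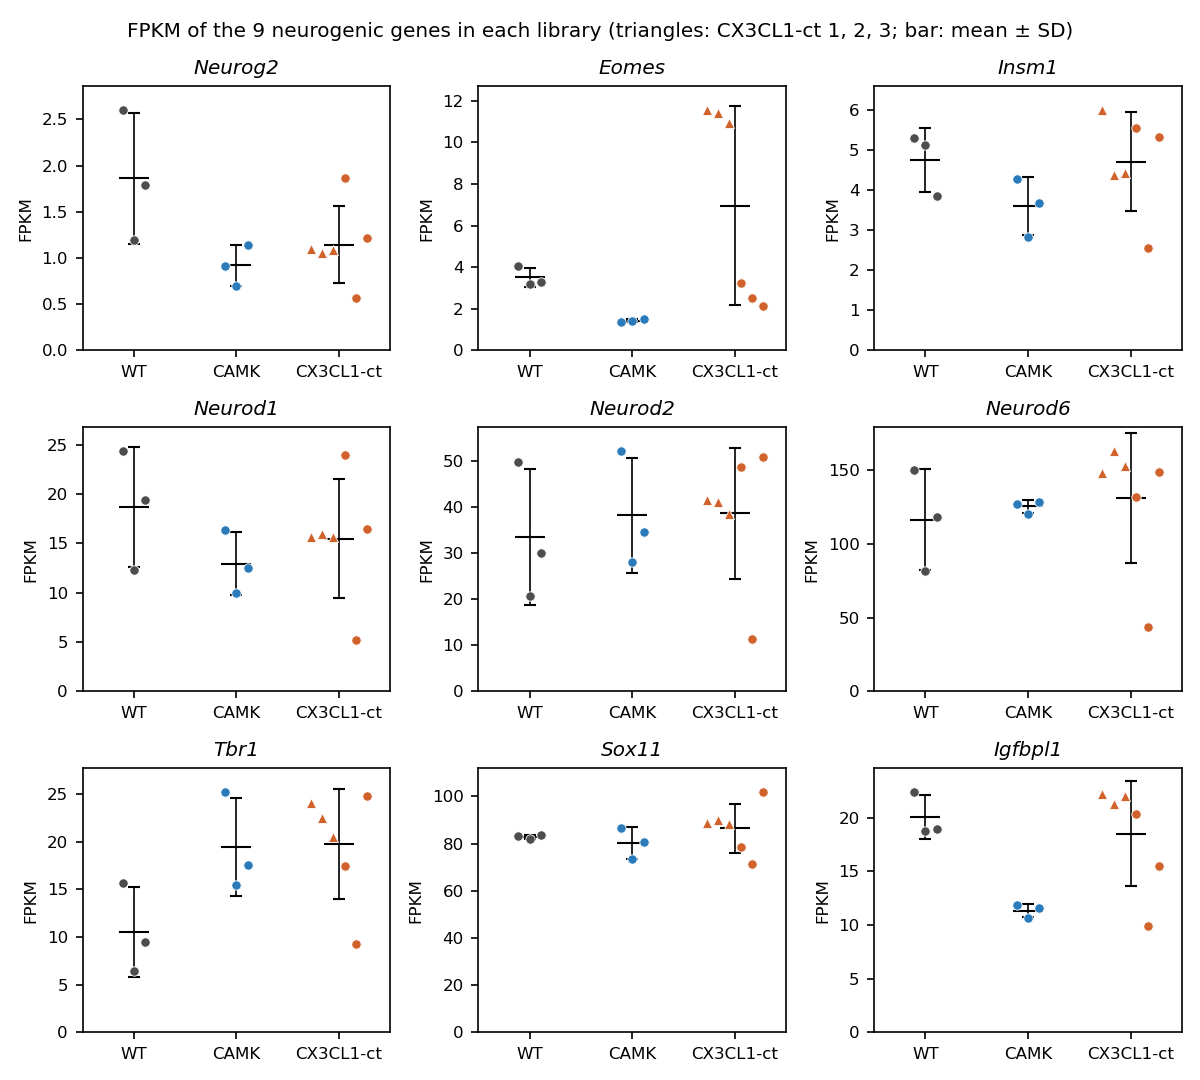
Levels of the 9 genes in FPKM (y axis), 1 point per library, by genotype group (x axis: WT, CAMK, CX3CL1-ct), with triangles for CX3CL1-ct 1, 2 and 3 and bars at the mean ± SD. Eomes stood at 10.9 to 11.6 in CX3CL1-ct 1 to 3 and at 1.36 to 4.05 in the other 9 libraries.

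FPKM corrects for transcript length, so levels can be set in order between genes. Neurod6 or Sox11 was the highest of the 9 in every library and the other of them came next, ahead of Neurod2, in all 12. Neurod6 averaged 126 ± 33.7 FPKM (SD, n = 12), Sox11 84.0 ± 8.12 and Neurod2 37.3 ± 12.9. Tbr1 (17.4 ± 6.41), Igfbpl1 (17.1 ± 4.92) and Neurod1 (15.7 ± 5.42) changed places from library to library and did not differ beyond their spread. Insm1 (4.45 ± 1.08) and Eomes (4.72 ± 4.06) came next, with Insm1 above Eomes in all libraries but CX3CL1-ct 1, 2 and 3. Neurog2 was the lowest in all 12 libraries (1.27 ± 0.562). The factors of neurons were thus more abundant than those of progenitors. Sox11 varied the least, with an SD of 9.67 percent of its mean, and Eomes the most, with 86.1 percent.

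Neurog2, Eomes and Igfbpl1 stood lower in every CAMK library than in every WT library, though none passed the test over all 12 libraries. The contrast of CAMK with WT bears on the driver by itself. Neurog2, the proneural factor at the top of the sequence, stood at 2.60, 1.19 and 1.79 FPKM in WT 1, 2 and 3 and at 0.918, 0.701 and 1.14 in CAMK 1, 2 and 3. All CAMK libraries were below all WT libraries, but the values rest on few fragments, an estimated 30 to 69 per WT library and 18 to 33 per CAMK library. The exact 95% Poisson interval, which covers counting error only, was 0.806 to 1.71 FPKM in WT 2 and 0.788 to 1.61 in CAMK 3, so these neighbours could not be told apart at this depth. The log2 difference was -0.55 (SE 0.22, 95% interval -1.03 to -0.08, adjusted p = 0.329).

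Eomes, the defining factor of intermediate progenitors, stood at 4.05, 3.21 and 3.29 FPKM in WT and at 1.36, 1.41 and 1.53 in CAMK. The groups were far apart compared with the spread within each, 3.51 ± 0.466 (SD, n = 3) against 1.44 ± 0.0835. In the fit over all 12 libraries the log2 difference was -0.89 (SE 0.53, adjusted p = 0.548), where the spread of the gene was set mostly by the CX3CL1-ct libraries. With only WT and CAMK in the fit the adjusted p was 0.0429 (0.351 percent of all genes called). With the replicate number as a block, over all 12 libraries, it was 0.00864 (2.97 percent called). Of CX3CL1-ct, only libraries 1 to 3, which resembled each other closely, enter the spread of the block fit. Pairing by number was not established either, so the block values of Eomes and Igfbpl1 do not stand on their own. Igfbpl1 was likewise lower in CAMK, with 22.4, 18.7 and 19.0 FPKM in WT and 11.8, 10.7 and 11.6 in CAMK. Its log2 difference was -0.77 (SE 0.24, adjusted p = 0.216), with an adjusted p of 0.0334 in the fit of these 2 groups, 0.00386 with the block, and 0.0223 without CX3CL1-ct 5 (0.551 percent of all genes called), a library outside the contrast that enters the estimate of spread. Insm1, which helps progenitors leave the ventricular surface, stood at 5.32, 5.14 and 3.85 FPKM in WT and at 4.29, 2.84 and 3.68 in CAMK, so the groups overlapped.

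Across the 9 genes, limma called 0 in CAMK against WT, where 0.358 percent of all 16503 genes tested were called, and 3 had an unadjusted p under 0.05 (12.4 percent of all genes). The 3 genes whose CAMK libraries all lay below WT were Neurog2, Eomes and Igfbpl1, against 8.8 percent of all genes in that direction. None lay wholly above, which 9.22 percent of all genes did. The median log2 difference of the 9 was -0.33, and 0.00 over all genes tested. Neurod1, Insm1 and Sox11 were also negative, while Tbr1, Neurod2 and Neurod6 were positive (50.5 percent of all genes were), although the signs of Neurod2 and Neurod6 turned without WT 2.

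Among the factors of neurons the signs were mixed. Tbr1, which gives deep-layer and hippocampal glutamatergic neurons their identity, stood at 15.6, 6.44 and 9.43 FPKM in WT and at 25.2, 15.5 and 17.5 in CAMK. CAMK 2 was just below WT 1, and otherwise CAMK was higher, also in each of the 3 same-numbered pairs. Pairing by number was not established, so such pairs and the value with the block do not stand on their own. The log2 difference was 0.88 (SE 0.35, 95% interval 0.11 to 1.65, adjusted p = 0.342, and 0.0504 with the replicate block). Neurod1 ran the other way, with 24.4, 12.3 and 19.4 FPKM in WT against 16.3, 10.02 and 12.5 in CAMK (log2 difference -0.47, SE 0.41, adjusted p = 0.702). It was lower in CAMK in each pair, as was Insm1, and Neurod2 was higher in each. The share of all genes that keep 1 sign over the 3 pairs was not computed. Neurod2, a factor of maturing neurons, stood at 49.7, 20.7 and 30.2 against 52.2, 28.0 and 34.7 FPKM. Neurod6, the most abundant of the family here, stood at 149.8, 81.2 and 118 against 127, 120.4 and 129. The adjusted p was 0.899 for Neurod2 and 0.925 for Neurod6, with 95% intervals of -0.83 to 1.29 and -0.74 to 1.05. Sox11 differed little, with 83.1, 81.8 and 83.7 FPKM in WT and 86.8, 73.4 and 80.6 in CAMK (log2 difference -0.05, 95% interval -0.29 to 0.19, adjusted p = 0.907).

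Within a library the ratio of 2 of these genes does not depend on the library's total. Tbr1 per Neurod6 was 0.0793 to 0.104 in WT, 0.129 to 0.198 in CAMK and 0.133 to 0.212 in CX3CL1-ct, so every driver library lay above every WT library. Neurod1 per Neurod6 was 0.152 to 0.164 in WT and 0.0832 to 0.128 in CAMK. In CX3CL1-ct it was 0.0983 to 0.118 in 5 libraries and 0.182 in CX3CL1-ct 4. These ratios were picked after the values were seen and carry no test.

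**Figure D2:**
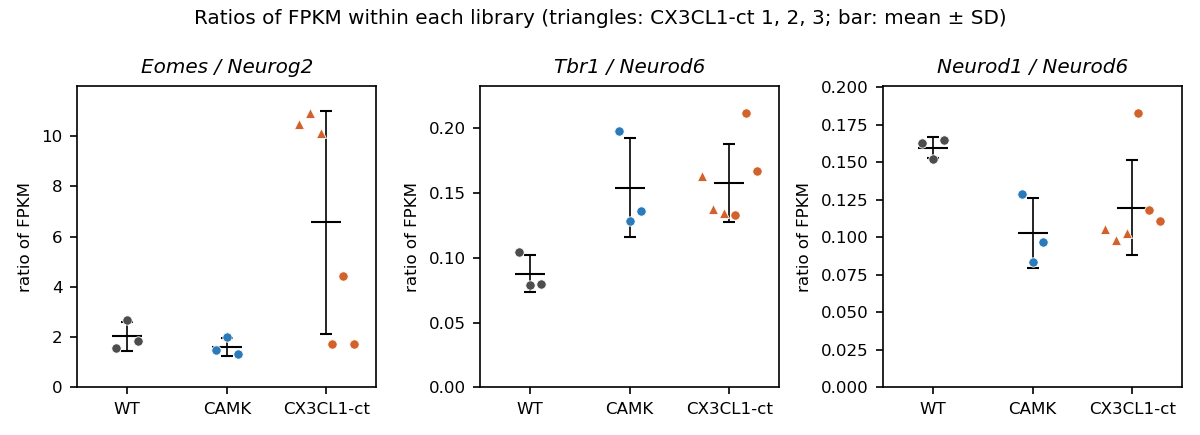
Ratios of FPKM within each library (y axis) for Eomes per Neurog2, Tbr1 per Neurod6 and Neurod1 per Neurod6 by group (x axis), with triangles for CX3CL1-ct 1, 2 and 3 and bars at the mean ± SD. Tbr1 per Neurod6 was at most 0.104 in WT and at least 0.129 in the driver libraries.

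Lists of other genes of the sequence were set beside them. Of 15 genes of radial glia and stem cells, 12 were lower in CAMK than in WT (median log2 difference -0.15) and 0 passed. Tfap2c, an AP2 factor of basal progenitors in that list, stood at 1.33, 1.30 and 1.44 FPKM in WT and at 0.569, 0.392 and 0.501 in CAMK (log2 difference -0.67, SE 0.29, adjusted p = 0.385). Of 19 tested companions of the proneural cascade, 12 were lower (median -0.17) and 0 passed. Gadd45g, a stress-inducible gene of cells leaving the cycle, stood at 5.96 to 7.67 FPKM in WT and 3.73 to 4.86 in CAMK. Of 14 genes of dividing cells, 13 were lower (median -0.37), of which Birc5 and Cdk1, both needed for mitosis, fell (log2 differences -0.63 and -0.65, adjusted p = 0.0201 and 0.0271). The call of Birc5 ended without WT 1, WT 3, CAMK 2 or CAMK 3 (adjusted p up to 0.104) or with a filter of FPKM of at least 5 (0.0526), that of Cdk1 without WT 1, WT 2, CAMK 1, CAMK 2 or CX3CL1-ct 3 (up to 0.127), and both ended in the fit of 2 groups (0.0661 and 0.128), with CX3CL1-ct 1 to 3 averaged (0.055 and 0.0797) and with CX3CL1-ct 4 to 6 alone (0.0877 and 0.108). Of 16 genes of young neurons, 11 were higher in CAMK (median 0.18) and 0 passed.

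Markers of neighbouring tissue moved in the same comparison. Striatal genes were lower in 11 of 11 (median -1.14), ganglionic eminence and interneuron genes lower in 11 of 11 (-0.33), choroid plexus genes lower in 7 of 8 (-0.55) and pyramidal neuron genes of the CA fields lower in 8 of 9 (-0.30). Thalamic genes were higher in 8 of 8 (0.65), neocortical genes higher in 9 of 12 (0.38) and meningeal genes higher in 10 of 10 (0.52). The summed thalamic level was 108 and 87.5 FPKM in CAMK 2 and CAMK 3, but 44.6 in CAMK 1, within the WT range of 37.6 to 48.0. Of the genes of these lists only Bcl11b of the neocortical list passed, as lower. Its highest values were in WT 2, WT 3 and CX3CL1-ct 5 (58.1, 50.7 and 40.2 FPKM), the libraries high in striatal genes. WT 1 was at 37.8 and CAMK at 24.8 to 31.7. The call of Bcl11b ended without WT 2, WT 3, CAMK 2, CAMK 3, CX3CL1-ct 1, CX3CL1-ct 2 or CX3CL1-ct 3 (adjusted p up to 0.182). It also ended with the replicate block (0.0559), in the fit of 2 groups (0.152), with CX3CL1-ct 1 to 3 averaged (0.111) and with CX3CL1-ct 4 to 6 alone (0.17). Cajal-Retzius genes were lower in 6 of 7 (-0.26) and dentate granule genes higher in 3 of 5 (0.10). Hippocampal markers were lower in 4 of 6 (-0.39). Cerebellar genes were higher in 2 of 3 (0.01), with Atoh1, Gabra6 and Cbln3 under 1 FPKM throughout, and olfactory bulb genes in 2 of 5 (-0.07). Zbtb20, a factor that hippocampal pyramidal neurons need, stood at 60.0 to 65.8 FPKM in WT and 34.3 to 36.4 in CAMK. Its log2 difference was -0.82 (adjusted p = 0.131). Of the same hippocampal list, Lef1 and Neurod6 were higher in CAMK, with Lef1 at 1.72 to 2.74 FPKM in WT and 3.29 to 4.90 in CAMK. Ribosomal protein genes, listed as a control for RNA quality, which they do not measure directly, were lower in 8 of 9 (-0.10). The part of these tissues and of RNA quality in the lower Neurog2, Eomes and Igfbpl1 was not tested.

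CX3CL1-ct against CAMK sets the transgene apart from the driver, which both groups carry. In each of the 6 CX3CL1-ct libraries Eomes exceeded every CAMK value. Igfbpl1, Insm1 and Neurod6 did so in 5 of 6, with CX3CL1-ct 5 below all CAMK libraries, and the other genes in fewer. Both comparisons share the CAMK libraries, so a low CAMK value enters each. Eomes stood at 11.6, 11.4, 10.9, 3.23, 2.49 and 2.12 FPKM in CX3CL1-ct 1 to 6, against 1.36 to 1.53 in CAMK. All 6 lay above all CAMK libraries, as 2.78 percent of all genes did, but the 6 fell into 2 sets. CX3CL1-ct 1, 2 and 3 stood at 11.3 ± 0.322 FPKM (SD, n = 3), and CX3CL1-ct 4, 5 and 6 at 2.62 ± 0.568. The mean of all 6 was 4.85 times the CAMK mean, with a log2 difference of 1.45 (SE 0.46, 95% interval 0.45 to 2.45, adjusted p = 0.725). The difference was 1.004 with CX3CL1-ct 1 to 3 averaged and 0.56 (SE 0.14) with CX3CL1-ct 4 to 6 alone, with an adjusted p of 1 in both.

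The libraries that were high in Eomes were also high in genes of the olfactory bulb. Tbx21, a T-box factor that mitral and tufted cells make, stood at 2.83, 2.43 and 2.38 FPKM in CX3CL1-ct 1, 2 and 3 and at 0.0355 to 0.168 in CX3CL1-ct 4 to 6. It was at 0 to 0.0527 in CAMK and 0.0379 to 0.122 in WT. Cdhr1, a cadherin-like protein of the same neurons, stood at 19.1, 19.2 and 19.8 FPKM in CX3CL1-ct 1, 2 and 3 and at 1.51 to 4.04 in the other 9 libraries. Doc2g stood at 6.64, 6.05 and 6.78 against 2.05 to 3.44. Shisa3, at 1.03, 1.26 and 1.11, was matched by CX3CL1-ct 5 (1.42), and Lhx5 was not raised (0.436 to 0.581, against 0.291 to 2.26 elsewhere). The list holds 6 genes, of which 5 were tested, 4 of these were positive in CX3CL1-ct against CAMK (median 0.63) and 0 passed. Its summed level was 57.7 to 139 FPKM in WT, 69.4 to 125 in CAMK and 28.0 to 144 in CX3CL1-ct, set mainly by Slc17a7, which hippocampal neurons also make. Without Slc17a7 the sum was 29.5 to 30.5 FPKM in CX3CL1-ct 1 to 3 and 4.78 to 10.6 elsewhere.

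Of other progenitor genes, some were high in the same 3 libraries and some were not. Tfap2c stood at 2.17, 2.70, 2.17, 1.18, 0.584 and 0.675 FPKM in CX3CL1-ct 1 to 6, all above CAMK, with the same 3 libraries highest. Neurog2 was at 1.05 to 1.10 FPKM in CX3CL1-ct 1 to 3, within the range of CAMK. Eomes per Neurog2 was 10.1 to 10.9 there, and 1.33 to 2.69 in all other libraries but CX3CL1-ct 5 (4.43). Pax6, which both radial glia and olfactory bulb interneurons make, stood at 9.10, 8.12 and 8.44 FPKM in CX3CL1-ct 1, 2 and 3 and at 3.40 to 5.74 elsewhere. Sp8, a factor of olfactory bulb interneurons, stood at 11.5, 11.8 and 11.7 against 1.18 to 6.64. The other genes of the ganglionic eminence and interneuron list were divided. Dlx1, Dlx2 and Etv1 were also highest in CX3CL1-ct 1 to 3, and Gad1, Gad2, Sp9, Dlx5 and Dlx6 were not. Lhx6 and Nkx2-1 were lowest there, at most 9.28 and 0.230 FPKM, against at least 10.8 and 0.286 elsewhere. The 3 genes whose levels over the 12 libraries were most like those of Eomes, among 11402 compared, were Gprc5b (Pearson r = 0.989 on the log2 scale), Pcbp3 (0.970) and Cnn3 (0.965), given as a description without a test. CX3CL1-ct 1 to 3 lay above every other library in 2.49 percent of all genes tested, and more than 2-fold above in 18 genes (0.109 percent), Eomes, Tbx21 and Cdhr1 among them. The part of olfactory bulb tissue in the Eomes level was not tested.

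**Figure D3:**
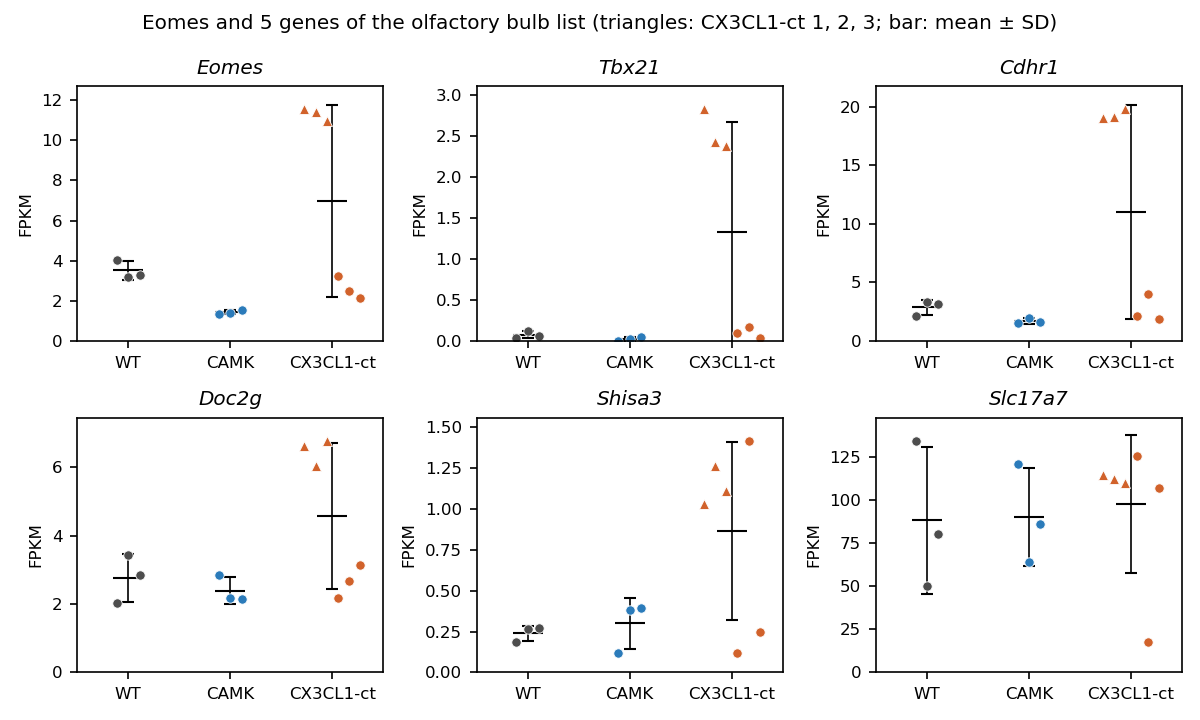
FPKM (y axis) of Eomes and of 5 genes of the olfactory bulb list in each library by group (x axis), with triangles for CX3CL1-ct 1, 2 and 3 and bars at the mean ± SD. Tbx21 was at least 2.38 in CX3CL1-ct 1 to 3 and at most 0.168 in the other libraries, and Cdhr1 at least 19.1 against at most 4.04.

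Igfbpl1 stood at 22.2, 21.3, 22.0, 20.3, 9.87 and 15.5 FPKM in CX3CL1-ct 1 to 6, against 10.7 to 11.8 in CAMK. In 5 of 6 libraries it was above all CAMK libraries, and CX3CL1-ct 5 was below them. The log2 difference was 0.61 (SE 0.21, 95% interval 0.16 to 1.07, adjusted p = 0.725). Without CX3CL1-ct 5 it was 0.77 and passed (adjusted p = 0.0328, with 0.0667 percent of all genes called). It was 0.48 with CX3CL1-ct 1 to 3 averaged and 0.34 with CX3CL1-ct 4 to 6 alone, with an adjusted p of 1 in both. Its nearest patterns were those of Ier5 (r = 0.952), Fbln2 (0.942) and Ccnd2 (0.941), the last a cyclin of dividing progenitors. Ccnd2 stood at 24.1 to 26.0 FPKM in WT, 18.5 to 21.6 in CAMK and 16.6 to 28.3 in CX3CL1-ct.

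Among the progenitor factors, Insm1 stood at 6.01, 4.40, 4.43, 5.57, 2.55 and 5.32 FPKM in CX3CL1-ct 1 to 6 against 2.84 to 4.29 in CAMK, with only CX3CL1-ct 5 not above CAMK (log2 difference 0.29, 95% interval -0.13 to 0.71, adjusted p = 0.836). Neurog2 stood at 1.10, 1.05, 1.08, 1.86, 0.563 and 1.21, which spans the CAMK range (0.14, 95% interval -0.27 to 0.55, adjusted p = 0.945). Neurog2 ran most like Nrp1 (r = 0.960), Fgfr1 (0.958) and Hopx (0.958). Hopx, a gene of dentate stem cells, stood at 22.0 to 35.0 FPKM in WT, 15.1 to 19.9 in CAMK and 9.52 to 30.8 in CX3CL1-ct.

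The neuronal factors differed more between CX3CL1-ct libraries than between the groups. Neurod1 was at 15.6, 16.0, 15.6, 24.0, 5.19 and 16.5 FPKM in CX3CL1-ct 1 to 6, Neurod2 at 41.5, 41.1, 38.4, 48.8, 11.3 and 50.9, and Neurod6 at 148, 163, 152, 131, 43.8 and 149. CX3CL1-ct 5 was the lowest in each, and of the 12 libraries it was also the lowest in each. Tbr1 was at 24.1, 22.5, 20.5, 17.5, 9.27 and 24.8, with CX3CL1-ct 5 again lowest in the group. The log2 differences from CAMK were 0.16 for Neurod1, -0.07 for Neurod2, -0.05 for Neurod6 and -0.01 for Tbr1 (adjusted p = 0.970, 0.991, 0.992 and 0.998). The 95% intervals reached -0.62 to 0.93, -0.99 to 0.85, -0.82 to 0.73 and -0.67 to 0.66, so a level of Neurod2 nearly 2-fold lower lay within its interval. Without CX3CL1-ct 5 the differences of Neurod2, Neurod6 and Tbr1 turned to 0.24, 0.24 and 0.18. Sox11 stood at 89.0, 90.2, 88.2, 78.5, 71.5 and 102 FPKM, 86.5 ± 10.5 (SD, n = 6) against 80.2 ± 6.74 (n = 3) in CAMK, with a 95% interval of -0.11 to 0.31 (adjusted p = 0.905).

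The 3 libraries with the highest striatal level were also the 3 lowest in Neurod6 and in Tbr1. Slc17a7, the vesicular transporter of glutamatergic forebrain neurons, was at 17.4 FPKM in CX3CL1-ct 5, 49.9 in WT 2 and 80.2 in WT 3, with CAMK 2 (64.2) between them. Neurod6 was at 43.8, 81.2 and 118 in the same order, and at 120.4 or more elsewhere. Tbr1 was at 9.27, 6.44 and 9.43 there and at 15.5 or more elsewhere. Neurod1 did not follow this order, since WT 3 (19.4) exceeded 9 of the other 11 libraries. Neurod2 ran most like Nell2 (r = 0.985), Mical2 (0.975) and Slc17a7 (0.974). Neurod6 ran most like Zeb2 (0.960), Slc17a7 (0.958) and Mfsd9 (0.955). CX3CL1-ct 5, the lowest in Neurod6, was below WT 2 in striatal level (190.7 against 262.7 FPKM). It was also the highest of the 12 libraries in the summed thalamic (115 FPKM) and cerebellar (74.0 FPKM) lists. CAMK 2 and CAMK 3 came next in the thalamic list, at 108 and 87.5 FPKM. The part of striatal, thalamic or cerebellar tissue in these levels was not tested.

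**Figure D4:**
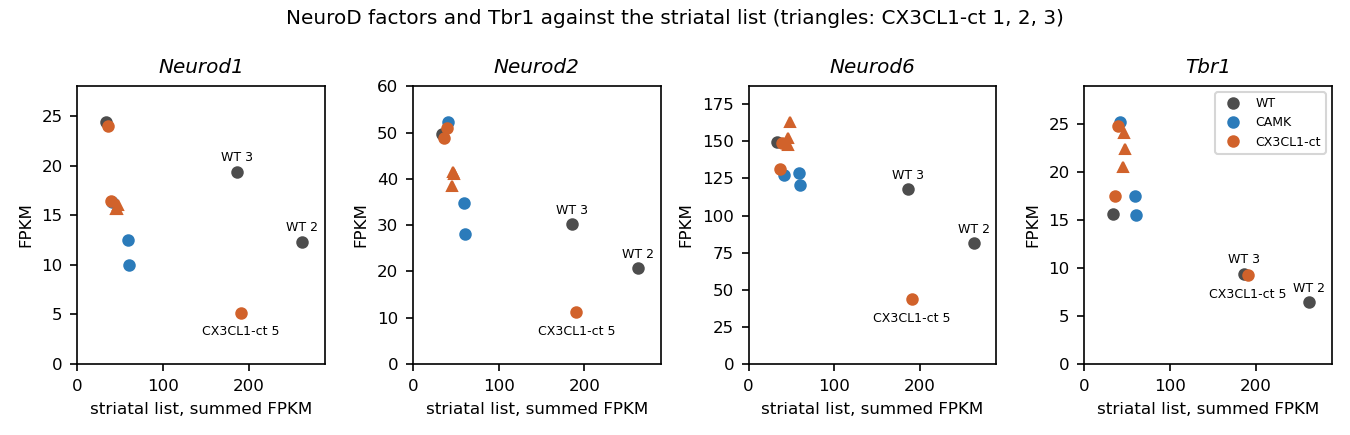
FPKM of Neurod1, Neurod2, Neurod6 and Tbr1 (y axis) against the summed FPKM of 11 striatal marker genes (x axis) in each of the 12 libraries, with triangles for CX3CL1-ct 1, 2 and 3. WT 2, WT 3 and CX3CL1-ct 5, at 186 to 263 on the x axis, held the lowest Neurod6 and Tbr1 values.

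Of the 9 genes, limma called 0 in CX3CL1-ct against CAMK, where 0.0606 percent of all genes were called, and 2 had an unadjusted p under 0.05 (6.37 percent of all genes). The signs were positive for 6 (63.2 percent of all genes) and negative for 3. None lay wholly below CAMK, as 0.527 percent of all genes did. The 9 had a median log2 difference of 0.14 against 0.04 over all genes tested. Radial glia and stem cell genes were higher in 12 of 15 (median 0.07), proneural companions in 12 of 19 (0.02) and genes of dividing cells in 14 of 14 (0.21), while genes of young neurons were lower in 12 of 16 (-0.07). None of these genes passed. Top2a, which untangles DNA in dividing cells, stood at 9.44 to 13.0 FPKM in CX3CL1-ct and 8.63 to 9.86 in CAMK. Ganglionic eminence and interneuron genes were higher in 8 of 11 (0.46), meningeal genes in 9 of 10 (0.42), Cajal-Retzius genes in 5 of 7 (0.28), striatal genes in 8 of 11 (0.10) and ribosomal protein genes in 9 of 9 (0.10). Thalamic genes were lower in 8 of 8 (-0.24), neocortical genes in 7 of 12 (-0.04) and dentate granule genes in 4 of 5 (-0.12). Choroid plexus genes were higher in 6 of 8 (0.01), cerebellar genes in 2 of 3 (0.09), CA-field genes in 5 of 9 (0.04) and hippocampal markers in 3 of 6 (0.01). None of these marker genes passed.

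CX3CL1-ct against WT covers driver and transgene together. Tbr1 had the largest log2 difference of the 9, and 5 of the 6 CX3CL1-ct libraries were above all WT libraries, 19.8 ± 5.79 FPKM (SD, n = 6) against 10.5 ± 4.69 (n = 3). The log2 difference was 0.87 (SE 0.31, 95% interval 0.20 to 1.54, adjusted p = 0.275), 0.76 with CX3CL1-ct 1 to 3 averaged and 0.64 with CX3CL1-ct 4 to 6 alone (adjusted p = 0.596 and 0.753). The mean of Tbr1 thus stood at 1.88 times the WT mean here and at 1.85 times in CAMK, comparisons that share the WT libraries. The WT mean holds WT 2 and WT 3 (6.44 and 9.43 FPKM), which were high in striatal genes, while WT 1 was at 15.6. CX3CL1-ct 5, the other library high in striatal genes, was at 9.27. Neocortical genes, a list that does not hold Tbr1, were at a mean log2 level of 2.82 to 2.997 in WT, 3.24 to 3.45 in CAMK and 3.02 to 3.63 in CX3CL1-ct, with 9 of 12 higher in CX3CL1-ct than in WT (median 0.28). The nearest patterns to Tbr1 were those of Tspan14 (r = 0.981), Dync1i1 (0.979) and Prss12 (0.978). The part of neocortical or striatal tissue in the Tbr1 level was not tested.

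Neurog2 stood below all WT libraries in 4 of 6 CX3CL1-ct libraries, 1.15 ± 0.419 against 1.86 ± 0.707 FPKM (log2 difference -0.41, 95% interval -0.82 to 0.00, adjusted p = 0.409). Eomes was above all WT libraries in CX3CL1-ct 1 to 3 and below them in CX3CL1-ct 5 and 6. Its log2 difference of 0.56 (SE 0.46, adjusted p = 0.642) became 0.12 with CX3CL1-ct 1 to 3 averaged and -0.33 with CX3CL1-ct 4 to 6 alone, so its direction rested on those 3 libraries. Igfbpl1 was at WT level in CX3CL1-ct 1 to 4 and below it in CX3CL1-ct 5 and 6 (log2 difference -0.15, 95% interval -0.60 to 0.30, adjusted p = 0.804). The other differences were -0.32 for Neurod1, 0.15 for Neurod2, 0.10 for Neurod6, 0.05 for Sox11 and -0.04 for Insm1, with adjusted p of 0.752 to 0.956. Of the 9 genes limma called 0, where 0.454 percent of all genes were called, and 1 had an unadjusted p under 0.05 (12.3 percent of all genes). The sign was positive for 5 (62.7 percent of all genes). The median log2 difference was 0.05, against 0.04 over all genes tested, and the groups overlapped for all 9, while 4.67 percent of all genes lay wholly above WT and 1.38 percent wholly below.

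Genes of dividing cells were lower than in WT in 12 of 14 (median -0.17), proneural companions in 11 of 19 (-0.13) and radial glia and stem cell genes in 8 of 15 (-0.00), while genes of young neurons were higher in 11 of 16 (0.12), and 0 of these passed. Meningeal genes were higher in 10 of 10 (0.89), of which 5 passed. Slc6a13, a GABA transporter of the meninges, rose by a log2 difference of 1.69 (adjusted p = 0.0156) and Aldh1a2, which makes retinoic acid, by 1.41 (0.0164), and Foxc1, Col1a2 and Slc22a6 rose by 0.73 to 1.38 (0.0408 to 0.042). All 5 calls ended without WT 2 (adjusted p 0.129 to 0.239), without WT 3 (0.11 to 0.212), with CX3CL1-ct 1 to 3 averaged (0.12 to 0.246), with CX3CL1-ct 4 to 6 alone (0.283 to 0.469) and in the fit of 2 groups (0.0519 to 0.109). Those of Foxc1, Col1a2 and Slc22a6 also ended without WT 1 or any 1 of CX3CL1-ct 1 to 3 and CAMK 3. Those of Foxc1 and Col1a2 ended without CAMK 1 or CAMK 2 as well, with median-of-ratios scaling (0.0573 and 0.0569) and with no filter (0.0553 and 0.0554). Striatal genes were lower in 11 of 11 (-1.09), choroid plexus genes in 8 of 8 (-0.55), CA-field genes in 7 of 9 (-0.26), hippocampal markers in 4 of 6 (-0.26), Cajal-Retzius genes in 4 of 7 (-0.26), dentate granule genes in 3 of 5 (-0.16), interneuron genes in 6 of 11 (-0.01) and ribosomal protein genes in 5 of 9 (-0.02). Thalamic genes were higher in 7 of 8 (0.34), olfactory bulb genes in 5 of 5 (0.53) and cerebellar genes in 3 of 3 (0.12). None of the genes of the lists from striatal to cerebellar passed. The summed striatal level overlapped between the groups, at 33.5 to 263 FPKM in WT and 36.0 to 190.7 in CX3CL1-ct. WT 1 was the lowest of all libraries in that sum.

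**Figure D5:**
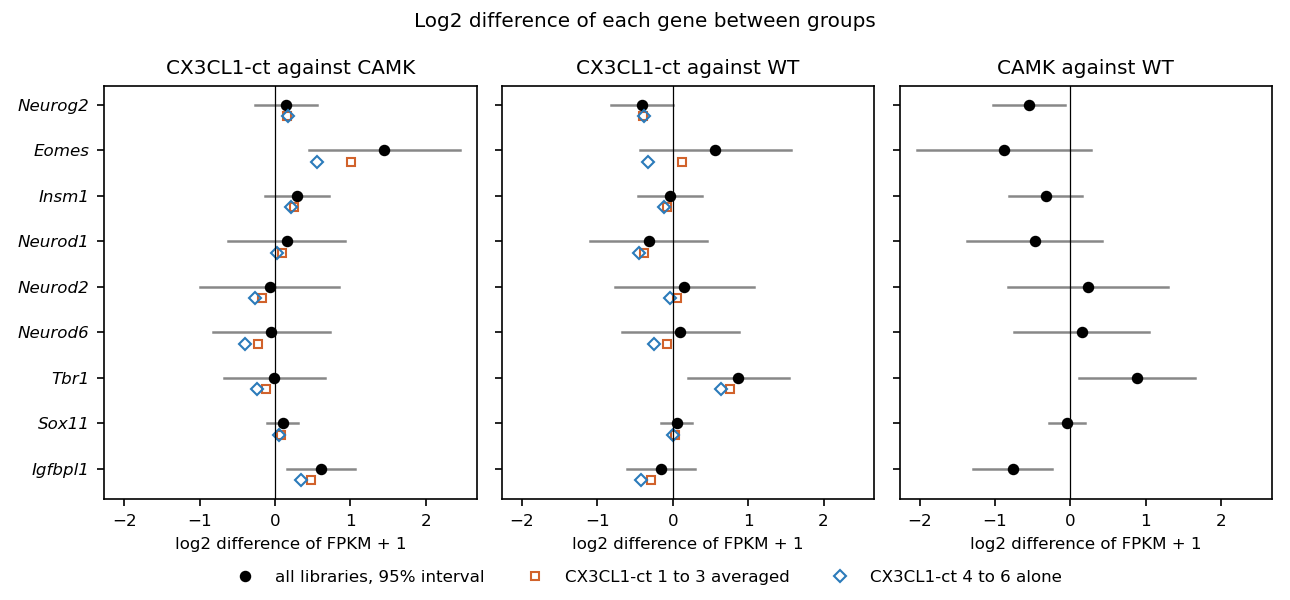
Log2 difference of FPKM + 1 (x axis) of each of the 9 genes (y axis) in 1 panel per comparison, with all libraries (black points, lines for the 95% interval), with CX3CL1-ct 1 to 3 averaged (squares) and with CX3CL1-ct 4 to 6 alone (diamonds). Eomes in CX3CL1-ct against CAMK moved from 1.45 to 1.004 and 0.56.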

How the data were processed

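The authors deposited 1 table of FPKM values for 29454 genes in 12 libraries (3 WT, 3 CAMK, 6 CX3CL1-ct). TopHat and Bowtie, Cufflinks and Cuffdiff, and build mm10 are named in the submitters' processing notes, and versions, scaling between libraries and use of strand are not given in the sources used here. Groups and replicate numbers came from the sample titles, which the columns match with CAMK written as CAMK2. Depth was estimated from the value of 1 fragment in genes of 1 exon, 1 transcript and 500 to 5000 nt, assuming fragments of 180 nt.

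Values were taken as log2(FPKM + 1), which understates the change of low genes. The 16503 genes that reached an FPKM of 1 in 3 or more libraries were fitted with limma 3.58.1 (R 4.3.3, eBayes with trend), 1 model with 3 group means over all libraries. P-values are two-sided, with Benjamini-Hochberg adjustment across the 16503 genes and a threshold of 0.05. The steps were tested on simulated data. The 9 genes, the 17 lists and the tests were chosen with earlier results of these data known. The rule for named genes took the 9 genes, list genes past the threshold, up to 3 more per list with the smallest p in CX3CL1-ct against CAMK, and for each of the 9 the 3 genes with the highest Pearson r among those with a mean FPKM of at least 2. The text gives those that stand beside a result, and the genes most like Neurod1 are not reported here. Sp8, Lhx6, Nkx2-1, Zbtb20, Shisa3, Lhx5 and Doc2g were added after their values were seen, although Zbtb20 and Doc2g also meet the rule.

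Deviations of same-numbered CAMK and WT libraries from their group means had r = 0.236, 0.163 and 0.10027 over genes. For CX3CL1-ct the values were 0.110, -0.130 and -0.0912 with CAMK and 0.114, -0.0622 and 0.0106 with WT. This correlation was not computed for libraries of different number, so pairing by number was not established. The number served as a block in an alternative fit only. Python 3.11.15 with pandas 2.3.3 and matplotlib 3.10.9 served for tables and figures.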

Additional observations from a re-analysis of the deposited data

Results flagged for a closer look

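In CX3CL1-ct 5, Neurod2 (11.3 FPKM) and Neurod6 (43.8 FPKM) stood far below the other 5 libraries of the group, where Neurod2 was at 38.4 to 50.9 and Neurod6 at 131 to 163. The gap to the nearest library was 0.685 of the group's range for Neurod2 and 0.737 for Neurod6, above the critical value of Dixon's test at 95% for 6 samples. The test was applied at both ends of the group for each of the 9 genes, and chance alone marks about 1 group in 20. CX3CL1-ct 5 also had the lowest level of the hippocampal marker list (95.1 FPKM summed), a list that itself holds Neurod6.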

How the results depend on the processing

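Sign and side of the threshold held for most of the values of the 9 genes over the alternatives. The exceptions follow, with no test of their cause. With the replicate number as a block, 171 genes (10 without it) were called in CX3CL1-ct against CAMK, 540 (75) in CX3CL1-ct against WT, and in CAMK against WT 490 (59). By construction that fit takes CX3CL1-ct from libraries 1 to 3 alone, since 4 to 6 have numbers of their own. It called 2 of the 9 genes in each comparison: Eomes (2.34, adjusted p = 6.96e-05) and Igfbpl1 (0.89, 0.00212) against CAMK, Eomes (1.45, 0.00111) and Tbr1 (1.097, 0.0249) in CX3CL1-ct against WT, and Eomes and Igfbpl1 in CAMK against WT. With the block, signs turned for Neurod2 (0.12), Neurod6 (0.30) and Tbr1 (0.22) in CX3CL1-ct against CAMK, and for Insm1 (0.042) and Igfbpl1 (0.12) in CX3CL1-ct against WT. With only the 2 groups compared, 38 genes were called in CX3CL1-ct against WT, and 2 of the 9 in CAMK against WT.

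With no filter 144 genes were called in CX3CL1-ct against WT, in CAMK against WT 123, and with an FPKM of at least 5 there were 30 in each, a filter that Neurog2 did not pass. Rescaled without small RNA genes there were 5 in CX3CL1-ct against CAMK (2 higher and 3 lower, against 2 and 8) and 94 in CAMK against WT. In CX3CL1-ct against WT the split of 33 higher and 42 lower became 24 and 54 with that scaling and 21 and 52 with median-of-ratios scaling. With CX3CL1-ct 1 to 3 averaged, 28 genes were called in CX3CL1-ct against WT, in CAMK against WT 27, and the sign of Neurod6 in CX3CL1-ct against WT turned (-0.070). The next 2 settings were chosen after seeing the data. With CX3CL1-ct 4 to 6 alone, 25 and 20 genes were called in these comparisons, and signs turned in CX3CL1-ct against WT for Eomes (-0.33), Neurod2 (-0.036) and Neurod6 (-0.24). With both WT 2 and CX3CL1-ct 5 left out, 38 genes were called in CX3CL1-ct against WT. Signs then turned for Neurod2 (0.24), Neurod6 (0.24) and Tbr1 (0.18) in CX3CL1-ct against CAMK, Insm1 (0.14) in CX3CL1-ct against WT, and Neurod2 (-0.063) and Neurod6 (-0.083) in CAMK against WT.

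Leaving out 1 library at a time gave 26 to 158 genes called in CX3CL1-ct against WT and 21 to 153 in CAMK against WT. Of the 9 genes it gave 0 to 1 called in CX3CL1-ct against CAMK and in CAMK against WT, the 1 being Igfbpl1 without CX3CL1-ct 5. Log2 differences whose sign turned spanned, in CX3CL1-ct against CAMK, -0.0018 to 0.42 (Neurod1), -0.27 to 0.24 (Neurod2), -0.13 to 0.24 (Neurod6) and -0.15 to 0.19 (Tbr1). In CX3CL1-ct against WT they spanned -0.16 to 0.093 (Insm1), -0.14 to 0.48 (Neurod2), -0.13 to 0.39 (Neurod6) and -0.21 to 0.0088 (Igfbpl1), and in CAMK against WT -0.063 to 0.55 (Neurod2), -0.083 to 0.35 (Neurod6) and -0.11 to 0.014 (Sox11). Depth limits Neurog2 most, with an estimated 16 to 69 fragments per library.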

Other observations

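Besides Eomes, Tbx21 and Cdhr1, the genes that stood more than 2-fold higher in each of CX3CL1-ct 1, 2 and 3 than in every other library were few and mostly low. They were picked after their values were seen. Ms4a15 was at 5.58 to 6.10 FPKM in those 3 libraries and at most 0.675 in the others, and Frmd7 at 5.58 to 5.93 and at most 1.31. Frzb, a secreted Wnt antagonist, was at 7.95 to 8.63 and at most 3.19. Apold1 was at 8.03 to 8.99 and at most 2.64. Snord14d, a small nucleolar RNA, was at 229.8 to 269.7 FPKM in CX3CL1-ct 1, 2 and 3 and listed at 0 in all 9 other libraries. The last gives no fold, since a 0 in this table can be a failed estimate.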
